A study of Mus musculus with 12 samples.

Results

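The 36 genes described here are the Fanconi anemia, homologous recombination and translesion synthesis genes, chosen by symbol from a list of genes that repair or bypass DNA crosslinks, out of 15803 genes with a read in at least 1 of 12 libraries. All 36 were found in the files, each as a single representative transcript. They were measured by ribosome profiling and RNA-seq in KPC cells, a mouse pancreatic ductal adenocarcinoma (PDAC) line from tumors of genetically engineered mice that carried, among their alleles, the Trp53 allele LSL-R172H, with Cre driven by the Pdx1 promoter (Pdx1-Cre), which is active in the pancreatic lineage. Each assay had 3 groups of 2 libraries: control cells (labelled as without treatment, and given PBS according to the methods), cells with cisplatin (Cis, 20 μM in the methods) for 6 h, and cells with Cis for 21 h. All groups are the same line and carry the same engineered alleles, the time for which the control cells were kept with PBS is not labelled, and the same control libraries served both time points. Nothing in the labels says that the libraries of a group came from separate cultures, so the p-values measure only the spread between these libraries, which may be technical.

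Cisplatin links bases on the same or on opposite DNA strands, and a crosslink between strands blocks replication forks. In the Fanconi pathway, a core complex of several FANC proteins acts as a ubiquitin ligase, with FANCL as its catalytic RING subunit and UBE2T as the E2 enzyme that carries the ubiquitin, and ubiquitylates the FANCD2-FANCI pair at the stalled fork. Nucleases held by the scaffold SLX4 then cut beside the crosslink, translesion polymerases copy past the unhooked base, and the broken strand is restored by homologous recombination, in which BRCA1, PALB2 and BRCA2 act together. Ribosome profiling reads footprints, the stretches of mRNA that a ribosome shields from nuclease, and their number over a coding sequence measures its translation. RNA-seq measures the amount of the mRNA, and the ratio of the first to the second is the translation efficiency (TE).

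Values below are RPKM as deposited, the reads of a transcript scaled by its length and by the total of the library, with the coding sequence as the length for footprints and the whole transcript for RNA. Libraries held 3375480 to 5204127 footprint reads and 1985344 to 2901692 RNA reads, and 51.8% to 56.6% of the RNA reads fell on only 3 transcripts (Mettl26, Lars2 and Tmem38b). Members were covered by a median of 89.8 footprint reads (range of group means 11.0 to 618) and 28.8 RNA reads (4.50 to 96.5) in control cells, so that the RNA values of single members are the less precise. Keratins of ductal epithelium were read in all 12 libraries (Krt8 at a median of 4749 footprint RPKM and Krt19 at 2587), although Epcam (1.02) and Muc1 (0.452) were low, and the 8 ductal markers summed to 9113 to 9795 footprint RPKM in controls and 6728 to 6861 at 21 h. The summed footprint RPKM of a library was 8.02 to 18.2 for 6 fibroblast markers (mostly Acta2), 4.11 to 7.59 for 4 acinar markers (Cpa1 and Ptf1a at 0), at most 4.28 for 6 leukocyte markers and at most 0.666 for 4 endothelial markers. The part of these markers in the members' levels was not tested. A member was tested where its mean scaled RPKM in the assay was at least 1. This left out Rev3l for footprints and Fancc and Fan1 for RNA.

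In control cells, per coding length, Mad2l2 had the highest footprint level of the 36 members (48.8 ± 5.71 RPKM, mean ± SD, n = 2). Polh (32.0 ± 0.0573), Rad50 (32.0 ± 3.22) and Mre11a (31.3 ± 1.42) followed and did not differ beyond their spread. Fancm (1.14 ± 0.00608) and Rev3l (1.09 ± 0.0528) were the lowest. The median member stood at 8.35 footprint RPKM, beside 11.2 for all transcripts with a read. In RNA per transcript length, Nbn (7.67 ± 0.264), Mad2l2 (7.43 ± 0.346) and Rbbp8 (7.39 ± 0.632) were the highest and within their spread of each other, and Fan1 (0.475 ± 0.174) was the lowest.

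To ask how treatment moved these genes, log2(RPKM + 0.5) was compared between groups with limma, fitted over all transcripts of an assay, and a change is called where the adjusted p (Benjamini-Hochberg over all transcripts tested) was under 0.05. At 6 h, 0 of 35 members passed in footprints, in a comparison in which 1.05% of all 10383 transcripts were called higher and 0.992% lower. An unadjusted p under 0.05 was reached by 8 members (and by 2217 of all transcripts), and voom (limma's count model, on reads recovered from RPKM) called 3 members higher (Ube2t, Eme1 and Exo1) and 2 lower (Fancl and Polk), beside 454 higher and 822 lower of all transcripts. Ube2t came closest, with a log2 fold change of 0.62 (SE 0.131, limma adjusted p = 0.0537), and it passed in 5 of 16 alternative fits. At 21 h, 7 of 35 members rose (20.0%, beside 18.9% of all transcripts) and 3 fell (8.57%, beside 20.2%). The share that rose is near that of all transcripts, while the member median was a log2 fold change of 0.27 and that of all transcripts 0.01. The members that rose were Eme1, Xrcc3, Ube2t, Brca1, Fancg, Exo1 and Xrcc2, and those called lower were Fancl, Nbn and Fancc. Fancc passed the filter on low values only through its control libraries, so that its call is set aside and Fancl and Nbn carry the count. With any 1 of the footprint libraries left out, 5 members were called higher and 2 to 3 lower, and with no filter or with only the groups compared in the fit Fancg (adjusted p 0.0685 and 0.0592) and Xrcc2 (0.0697 and 0.0662) were lost.

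**Figure D1:**
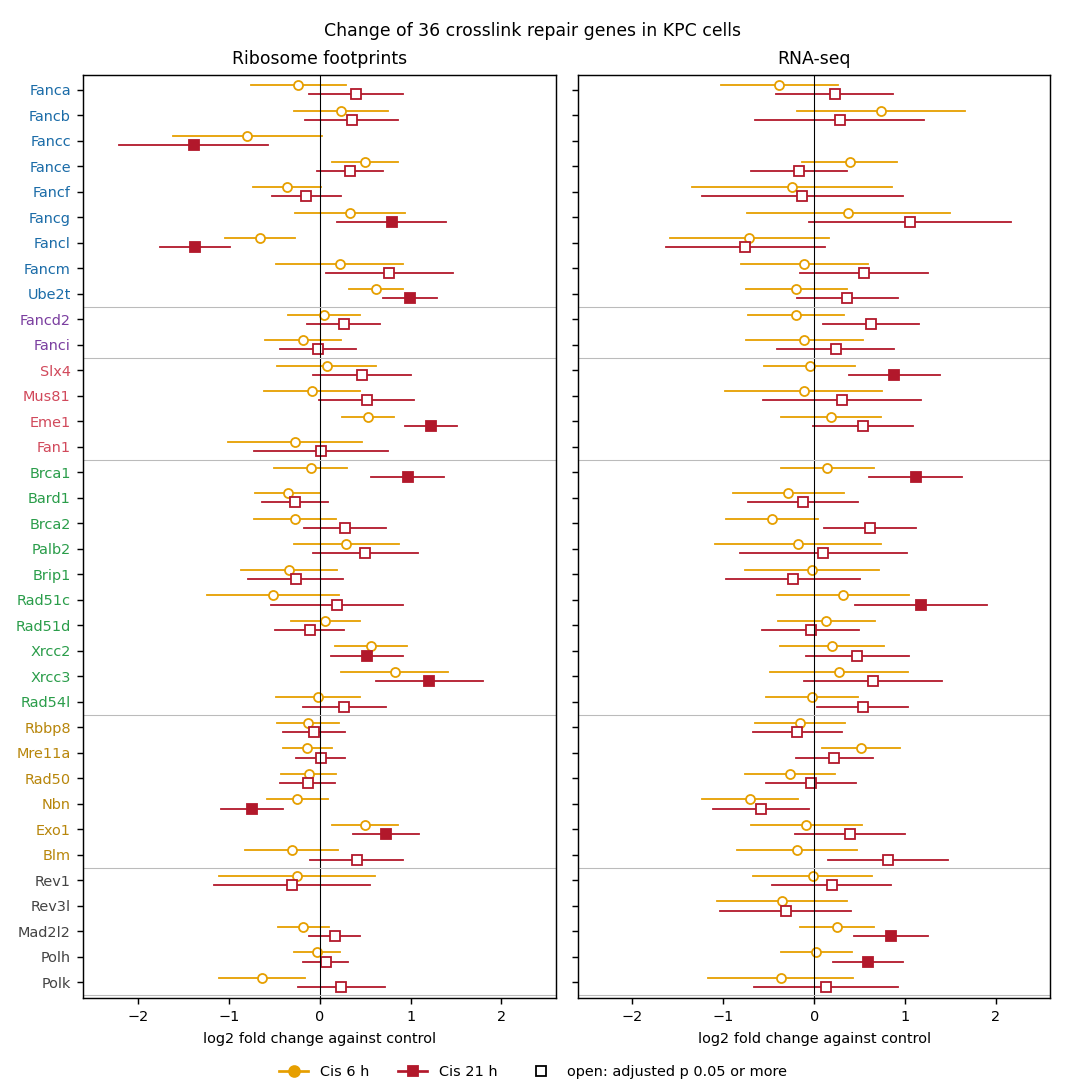
Log2 fold change against control (x axis) of each of the 36 members (y axis, grouped by role with grey lines between roles) in footprints (left) and RNA-seq (right). Circles are Cis 6 h and squares Cis 21 h, bars are 95% confidence intervals, and filled symbols passed an adjusted p of 0.05. No symbol is filled at 6 h, and at 21 h 10 are filled for footprints and 5 for RNA, with Brca1 filled in both. Members without a symbol were below the filter in that assay.

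In RNA, 0 of 34 members were called at 6 h, where 0.0% of all 9443 transcripts were called higher and 0.0% lower. Of the members 2 had an unadjusted p under 0.05 (1086 of all transcripts), and voom called 0 members, although it called 57 transcripts higher and 172 lower in all. At 21 h, 5 of 34 members rose (14.7%, beside 11.6% of all transcripts) and 0 fell (beside 12.2%). An unadjusted p under 0.05 was reached by 10 members and by 3491 of all transcripts, and voom called 8 members higher and 0 lower, beside 1481 higher and 1523 lower of all transcripts. The 5 were Rad51c, Brca1, Slx4, Mad2l2 and Polh. The member median was 0.29, beside 0.02 for all transcripts.

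Of the 9 genes of the Fanconi core complex and its E2, all 9 were tested for footprints. At 21 h, 2 rose (22.2%, beside 18.9% of all transcripts) and 2 were called lower (22.2%, beside 20.2%). Of the genes called lower, Fancc is described without its test. Ube2t, the E2 enzyme, had footprint RPKM of 20.7 and 20.7 in the control libraries, 29.3 and 35.8 at 6 h, and 43.0 and 42.6 at 21 h. Each 6 h library was above both controls and each 21 h library was above both 6 h libraries, and at 21 h the log2 fold change was 0.99 (SE 0.131, limma adjusted p = 0.000667). Fancl, the RING subunit that works with Ube2t, went the other way. Its footprint RPKM was 16.1 and 14.9 in the controls, 9.47 and 10.01 at 6 h, and 6.27 and 5.34 at 21 h, with no overlap between any of the groups. The log2 fold change was -0.65 at 6 h (SE 0.169, limma adjusted p = 0.0853) and -1.38 at 21 h (SE 0.169, adjusted p = 0.000474). Both calls at 21 h held in all 16 alternative fits.

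The RNA of neither gene passed at 21 h. Ube2t RNA was 5.82 and 5.25 RPKM in controls and 7.69 and 7.72 at 21 h, a log2 fold change of 0.37 (SE 0.249), and Fancl RNA was 1.49 and 2.15 in controls and 1.42 and 0.527 at 21 h, a log2 fold change of -0.76 (SE 0.392). Fancl RNA rested on 3 to 17 reads a library. The ratio of Ube2t to Fancl footprint RPKM, per coding length, was 1.29 and 1.39 in control libraries, 3.09 and 3.58 at 6 h, and 6.86 and 7.97 at 21 h. The ratios of the 3 groups did not overlap. With 2 libraries a group an exact permutation test cannot give a p below 0.333, so ratios are given without a test.

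Fancc, a core subunit, had footprint RPKM of 2.82 and 1.69 in controls, 0.962 and 1.17 at 6 h, and 0.459 and 0.646 at 21 h (3 and 4 reads). All treated libraries lay below both controls, which is given as a description, since only the control level brought Fancc past the filter. In RNA, Fancc had 3 and 8 reads in controls and 2 and 2 at 21 h, which was below the filter. Fancg, another core subunit, had 2.88 and 1.95 footprint RPKM in controls, 3.31 and 3.01 at 6 h, and 5.08 and 4.14 at 21 h. Both 21 h libraries were above the other 4, with a rise of 0.79 on the log2 scale (SE 0.264, adjusted p = 0.0427) that no longer passed without any 1 of the 6 libraries (adjusted p 0.0551 to 0.222). The other core genes did not pass. Fancm, the translocase that anchors the complex to DNA, was at 1.14 and 1.13 RPKM in controls and 2.68 and 2.03 at 21 h (log2 fold change 0.77, SE 0.306, adjusted p = 0.0786), and Fanca, Fancb, Fance and Fancf had log2 fold changes of 0.40, 0.35, 0.33 and -0.15.

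The 3 members of this group printed here changed in footprints and are shown with the 250 bases before their RefSeq start, to set what the promoter letters hold beside the change. The sequences are RefSeq's on GRCm38.p6, 5′ to 3′ on the strand of the gene, in lower case, with capitals marking the letters of a motif searched on either strand: the E2F strings TTTCCCGC, TTTCGCGC, TTTGCCGC and TTTGGCGC, the CCAAT string, and the CHR strings TTTGAA and TTCGAA. The deposited values use GRCm39, and only the letters were taken from the older build.
Ube2t, chr1:134962315-134962564, + strand: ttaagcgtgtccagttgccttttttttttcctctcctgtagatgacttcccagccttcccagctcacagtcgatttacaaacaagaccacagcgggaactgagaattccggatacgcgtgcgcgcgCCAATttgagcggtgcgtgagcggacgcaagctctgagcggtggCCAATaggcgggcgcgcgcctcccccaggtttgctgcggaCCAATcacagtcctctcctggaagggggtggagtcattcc
Fancl, chr11:26386834-26387083, + strand: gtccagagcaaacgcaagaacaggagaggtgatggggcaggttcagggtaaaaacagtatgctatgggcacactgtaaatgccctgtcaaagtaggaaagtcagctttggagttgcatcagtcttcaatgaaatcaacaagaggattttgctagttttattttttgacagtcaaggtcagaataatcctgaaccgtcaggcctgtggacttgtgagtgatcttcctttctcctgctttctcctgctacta
Fancg, chr4:43010302-43010551, - strand: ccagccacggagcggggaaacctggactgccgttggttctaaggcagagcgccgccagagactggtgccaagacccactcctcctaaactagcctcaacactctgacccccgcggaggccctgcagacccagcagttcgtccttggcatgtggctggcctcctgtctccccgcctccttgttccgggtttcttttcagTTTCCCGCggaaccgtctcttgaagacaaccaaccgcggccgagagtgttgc
The Ube2t window held CCAAT 3 times, its first letter 124, 80 and 40 bases before the start. The Fancg window held 1 E2F string, 52 to 45 bases before the start, and the Fancl window held none of the strings. RefSeq windows were matched for 28 of 36 members, with 32 windows in all. An E2F string stood in 3 of 32 (9.38%, beside 1.86% of all 32851 windows), CCAAT in 16 (50.0%, beside 33.8%) and a CHR string in 1 (3.12%, beside 17.1%). These shares describe letters and were not tested, and a window without a string says nothing about the factor that binds it.

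The substrates of that ligase, Fancd2 and Fanci, did not pass at 21 h in either assay. Fancd2 footprint RPKM was 13.1 and 10.9 in controls and 13.3 and 16.6 at 21 h (log2 fold change 0.27), and Fanci was 8.81 and 9.09 and then 9.59 and 8.54 (-0.02). In RNA, Fancd2 was 2.95 and 3.88 in controls, 2.92 and 2.59 at 6 h, and 5.92 and 5.73 at 21 h. Its RNA was higher at 21 h than at 6 h (log2 fold change 0.82, SE 0.235, limma adjusted p = 0.0423), but not against control (0.63, SE 0.235, adjusted p = 0.0835). The Fancd2 to Fanci footprint ratio was 1.49 and 1.20 in controls and 1.39 and 1.94 at 21 h, and these overlapped.

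**Figure D2:**
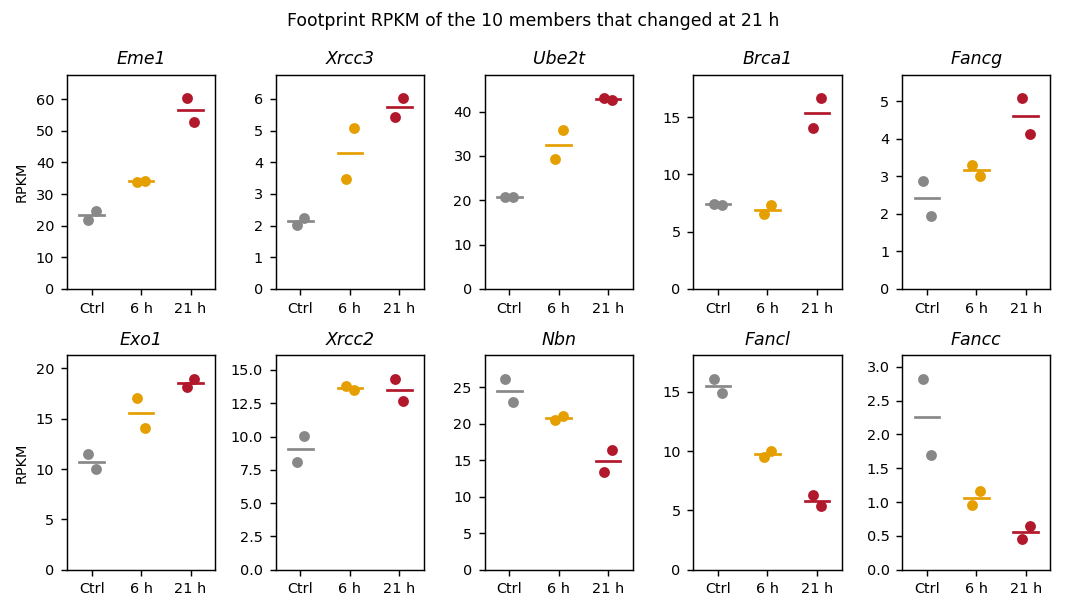
Footprint RPKM (y axis, from 0, a separate scale for each gene) of the 10 members called at 21 h (Fancc passed the filter only through its control level) in the control, Cis 6 h and Cis 21 h libraries. Points are libraries (2 a group) and bars are group means. Eme1, Ube2t, Nbn and Fancl at 6 h lay between control and 21 h, Brca1 at 6 h lay at or below the control level, and the 6 h and 21 h libraries of Xrcc2 overlapped.

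Among the unhooking nucleases and their scaffold, 1 of 4 rose in footprints at 21 h (25.0%, beside 18.9% of all transcripts). None fell (beside 20.2%). Eme1, the partner subunit that MUS81 needs to cut branched DNA, had footprint RPKM of 21.8 and 24.7 in controls, 33.9 and 34.3 at 6 h, and 60.3 and 52.7 at 21 h. The 3 groups did not overlap, and the log2 fold change was 0.53 at 6 h (SE 0.127, limma adjusted p = 0.0695) and 1.23 at 21 h (SE 0.127, adjusted p = 0.000212). Eme1 RNA was 4.82 and 4.23 RPKM in controls and 5.62 and 9.20 at 21 h and did not pass (0.54, SE 0.245). Mus81 footprint RPKM was 4.30 and 3.24 in controls and 6.07 and 5.37 at 21 h (0.52, SE 0.230, adjusted p = 0.106). The Eme1 to Mus81 footprint ratio was 5.07 and 7.62 in controls, 9.74 and 9.57 at 6 h, and 9.93 and 9.82 at 21 h, so that both treated groups lay above the controls and close to each other.

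Slx4, the scaffold that holds these nucleases, rose in RNA. Its RNA was 3.13 and 3.56 RPKM in controls, 2.74 and 3.42 at 6 h, and 6.62 and 7.38 at 21 h, with both 21 h libraries above the other 4 (log2 fold change 0.88, SE 0.225, limma adjusted p = 0.0191). Without control replicate 1 or 2, or Cis 21 h replicate 1 or 2, the adjusted p was 0.107, 0.0674, 0.0675 and 0.0939. In footprints Slx4 was 3.03 and 3.15 in controls and 4.10 and 5.12 at 21 h, a log2 difference of 0.47 (SE 0.237, adjusted p = 0.149). Fan1, a nuclease that FANCD2 recruits, had a footprint log2 fold change of 0.01.

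Of the 10 recombination mediators, 3 rose in footprints at 21 h (Xrcc3, Brca1 and Xrcc2), which is 30.0%, beside 18.9% of all transcripts. In RNA 2 rose (Rad51c and Brca1), which is 20.0%, beside 11.6%. None fell in either (beside 20.2% in footprints and 12.2% in RNA). Brca1, the ubiquitin ligase that steers breaks to recombination, had footprint RPKM of 7.46 and 7.30 in controls, 6.55 and 7.30 at 6 h, and 14.0 and 16.6 at 21 h. Its RNA was 2.90 and 3.93, then 3.37 and 3.89, and then 7.64 and 9.25. In both assays the 6 h libraries overlapped the controls or lay below them and the 21 h libraries stood above all others, with log2 fold changes at 21 h of 0.97 in footprints (SE 0.176, limma adjusted p = 0.00308) and 1.12 in RNA (SE 0.227, adjusted p = 0.00741). Brca1 was the 1 member called at 21 h in both assays. The footprint call held in all 16 alternatives, and the RNA call was lost without control replicate 1 (0.0600) or Cis 21 h replicate 2 (0.0534).

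Bard1, the obligate partner of Brca1, did not follow it. Its footprint RPKM was 12.9 and 13.6 in controls, 10.8 and 9.94 at 6 h, and 11.7 and 10.6 at 21 h (log2 fold change at 21 h -0.27, SE 0.158). The Brca1 to Bard1 ratio was 0.578 and 0.539 in control footprints, 0.608 and 0.735 at 6 h, and 1.20 and 1.57 at 21 h. In RNA it went from 0.826 and 0.769 in controls to 1.55 and 2.73 at 21 h. The promoter letters of Brca1 are shown as those of the member called in both assays, with a CCAAT string 86 to 82 bases before the start.
Brca1, chr11:101551956-101552205, - strand: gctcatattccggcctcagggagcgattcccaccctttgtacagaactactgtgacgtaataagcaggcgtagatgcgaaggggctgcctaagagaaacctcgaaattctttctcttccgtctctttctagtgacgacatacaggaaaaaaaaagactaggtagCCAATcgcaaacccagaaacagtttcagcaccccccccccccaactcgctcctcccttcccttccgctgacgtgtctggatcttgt

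Rad51c, Rad51d, Xrcc2 and Xrcc3 are related genes of recombination, and Rad51c takes part in both of their main complexes, with Xrcc3 or with Rad51d and Xrcc2. Xrcc3 footprint RPKM was 2.02 and 2.25 in controls (11 reads each), 3.46 and 5.09 at 6 h, and 5.44 and 6.02 at 21 h, with no overlap of the groups (log2 fold change at 21 h 1.21, SE 0.257, limma adjusted p = 0.00642). Xrcc2 was 8.06 and 10.03 in controls, 13.8 and 13.5 at 6 h, and 14.3 and 12.7 at 21 h. Both treated groups of Xrcc2 lay above the controls, with 0.52 at 21 h (SE 0.174, adjusted p = 0.0423) and 0.56 at 6 h (SE 0.174, adjusted p = 0.119). The Xrcc2 call was lost in 9 of 16 alternatives, among them without control replicate 1 (0.223), without Cis 6 h replicate 1 (0.0644) or 2 (0.0645), and without Cis 21 h replicate 1 (0.141) or 2 (0.0632).

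Rad51c RNA was 2.24 and 1.06 RPKM in controls (9 and 5 reads), 1.85 and 2.12 at 6 h, and 4.74 and 4.10 at 21 h. Both 21 h libraries stood above the other 4, with a log2 fold change of 1.17 (SE 0.324, limma adjusted p = 0.0277). With no filter on low values the call was lost (limma adjusted p = 0.0709). It was also lost without control replicate 2 (log2 fold change 0.75), Cis 21 h replicate 1 (1.05) or Cis 21 h replicate 2 (1.30). Its footprints were 6.67 and 5.96 in controls and 10.1 and 5.47 at 21 h, and the groups overlapped (0.19, SE 0.319). Rad51d had a footprint log2 fold change of -0.11 and an RNA log2 fold change of -0.04.

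Brca2, a central mediator of strand exchange, had RNA of 3.45 and 3.28 RPKM in controls, 2.21 and 2.18 at 6 h, and 5.44 and 6.02 at 21 h. The 6 h libraries were the lowest and the 21 h libraries the highest, and RNA at 21 h was above that at 6 h by a log2 fold change of 1.07 (SE 0.227, limma adjusted p = 0.0134), while neither time point passed against control (-0.46 at 6 h and 0.61 at 21 h). Brca2 footprints were 5.37 and 4.94, then 4.33 and 4.12, and then 6.44 and 6.59, the same order without a call (0.28 at 21 h). Palb2, which links BRCA1 to BRCA2, the helicase gene Brip1 and the DNA translocase gene Rad54l had footprint log2 fold changes at 21 h of 0.50, -0.27 and 0.27.

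In the MRN complex, which senses broken ends and starts their resection, 1 of the 3 subunits fell (beside 20.2% of all transcripts). Nbn footprint RPKM was 26.1 and 22.9 in controls, 20.5 and 21.0 at 6 h, and 13.4 and 16.4 at 21 h. The groups did not overlap, and the log2 fold change at 21 h was -0.74 (SE 0.149, limma adjusted p = 0.00500), a call that held in all 16 alternatives. The other two subunits stayed close to control, with Mre11a at 32.3 and 30.3 RPKM in controls and 33.7 and 31.0 at 21 h, and Rad50 at 29.7 and 34.2 and then 31.4 and 28.2. Their log2 fold changes at 21 h were 0.01 (95% confidence interval -0.26 to 0.28) and -0.13 (-0.43 to 0.16). The Nbn to Mre11a footprint ratio was 0.808 and 0.758 in controls, 0.694 and 0.756 at 6 h, and 0.397 and 0.530 at 21 h, and the Mre11a to Rad50 ratio was 1.09 and 0.885 in controls and 1.07 and 1.10 at 21 h. Nbn RNA was 7.86 and 7.48 in controls, 3.58 and 5.13 at 6 h and 4.41 and 6.23 at 21 h, with every treated library below both controls, but no call (-0.71 at 6 h, adjusted p = 0.323, and -0.58 at 21 h, adjusted p = 0.104).

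**Figure D3:**
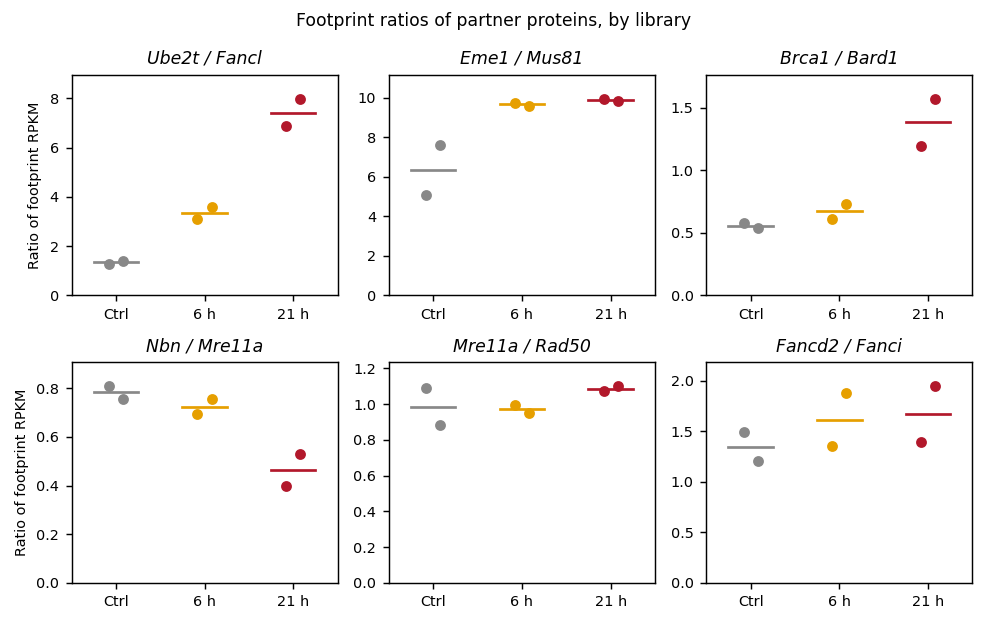
Ratio of the footprint RPKM of pairs of partner proteins (y axis, from 0, a separate scale for each pair) in each control, Cis 6 h and Cis 21 h library. Points are libraries (2 a group) and bars are group means. The 21 h libraries lie above the controls for Ube2t to Fancl (6.86 and 7.97 against 1.29 and 1.39), Eme1 to Mus81 and Brca1 to Bard1, below them for Nbn to Mre11a, and overlap them for Mre11a to Rad50 and Fancd2 to Fanci.

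Exo1, the exonuclease that extends resection, had footprint RPKM of 11.5 and 9.997 in controls, 17.1 and 14.0 at 6 h, and 18.1 and 18.9 at 21 h. All 4 treated libraries were above the controls, with a log2 fold change at 21 h of 0.73 (SE 0.159, limma adjusted p = 0.00729), lost without control replicate 2 (0.0510). Blm, the helicase that acts in resection and in dissolving recombination intermediates, was at 6.55 and 8.01 in controls, 5.01 and 6.75 at 6 h, and 8.99 and 11.2 at 21 h, and did not pass against control (0.41, SE 0.225). It was higher at 21 h than at 6 h in footprints (0.71, SE 0.225, adjusted p = 0.0414) and in RNA (1.002, SE 0.294, adjusted p = 0.0459). Both of these calls for Blm were lost without Cis 6 h replicate 1 (0.210 and 0.117), Cis 6 h replicate 2 (0.0562 and 0.127) or Cis 21 h replicate 2 (0.169 and 0.265, with the RNA value at 0.66), and without control replicate 1 (0.0562 and 0.0704) or 2 (0.0584 and 0.0720). Rbbp8, which with MRN starts resection, had a log2 fold change of -0.06 in footprints and -0.18 in RNA.

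None of the 4 translesion genes tested for footprints passed at 21 h (beside 18.9% of all transcripts higher and 20.2% lower). In RNA 2 of 5 rose and 0 fell (beside 11.6% of all transcripts higher and 12.2% lower). Mad2l2, the accessory subunit that joins the polymerase REV3L to REV1, had RNA of 7.67 and 7.18 RPKM in controls, 8.53 and 8.46 at 6 h, and 16.2 and 13.1 at 21 h (log2 fold change 0.85, SE 0.182, limma adjusted p = 0.00944). Its footprints were 52.8 and 44.7 in controls and 52.7 and 59.3 at 21 h, and overlapped (0.16, SE 0.122). Polh, the polymerase that copies past cisplatin-linked guanines, had RNA of 6.77 and 7.34 in controls, 7.16 and 6.55 at 6 h, and 10.9 and 12.3 at 21 h (0.59, SE 0.174, adjusted p = 0.0343). Its footprints were 32.0 and 31.9 in controls, 31.7 and 31.6 at 6 h, and 34.7 and 34.1 at 21 h, a log2 fold change of 0.07 with a 95% confidence interval of -0.18 to 0.32. The Mad2l2 RNA call was lost without control replicate 2 (log2 fold change 0.79) or Cis 21 h replicate 1 (0.66). The Polh RNA call was lost without control replicate 1 or 2 (0.55 and 0.63) or Cis 21 h replicate 1 or 2 (0.64 and 0.54). With no filter on low values the Polh call was also lost (limma adjusted p = 0.0512).

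Polk, a second polymerase of the same family, had footprint RPKM of 10.2 and 7.13 in controls, 5.67 and 5.10 at 6 h, and 11.0 and 9.86 at 21 h. It was higher at 21 h than at 6 h (log2 fold change 0.87, SE 0.210, limma adjusted p = 0.0151), with no call against control (-0.64 at 6 h and 0.24 at 21 h), and lost the call without Cis 6 h replicate 2 (0.0817) or Cis 21 h replicate 1 (0.0592). Rev1, the scaffold of the bypass polymerases, had 2.15 and 2.40 RPKM in controls and 2.68 and 1.15 at 21 h (-0.31). Rev3l, the catalytic subunit that partners Mad2l2, had 55 and 46 footprint reads in controls and 25 and 7 at 21 h and was below the filter, and its RNA log2 fold change was -0.31.

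Compared directly, 21 h was higher than 6 h for 4 of 35 members in footprints (11.4%, beside 15.0% of all transcripts) and lower for 2 (5.71%, beside 15.7%). The 4 were Brca1 (log2 fold change 1.07, SE 0.176, limma adjusted p = 0.00311), Polk, Blm and Eme1 (0.70, SE 0.127, adjusted p = 0.00466), and the 2 were Fancl (-0.72, SE 0.169, adjusted p = 0.0138) and Nbn (-0.50, SE 0.149, adjusted p = 0.0356). Without Cis 6 h replicate 1 or 2 neither of the 2 was called lower (Fancl 0.0542 and 0.0789, Nbn 0.115 and 0.143), Fancl was also lost without Cis 21 h replicate 2 (0.0517), and Nbn without control replicate 1 (0.0538) or 2 (0.0532) or Cis 21 h replicate 1 (0.144). In RNA, 5 of 34 members were higher at 21 h than at 6 h (14.7%, beside 7.53% of all transcripts) and 0 were lower (beside 8.21%): Brca2, Blm, Brca1 (0.97), Slx4 (0.93) and Fancd2. In that RNA comparison 11 members and 2929 of all transcripts had an unadjusted p under 0.05, and voom called 6 members higher and 0 lower, beside 985 higher and 1027 lower of all transcripts. Without the scaling factors the median of all transcripts moved from 0.01 to 0.15 and the split of all calls from 711 higher and 775 lower to 1233 and 516. With any 1 RNA library left out, 0 to 3 members were called higher in that comparison. Fancd2 was lost without each of the 6 (adjusted p 0.0567 to 0.159), Brca1 without Cis 6 h replicate 1 or 2 (0.0865 and 0.0512) or Cis 21 h replicate 1 or 2 (0.0586 and 0.110), Slx4 without Cis 6 h replicate 1 (0.1003) or Cis 21 h replicate 1 or 2 (0.0780 and 0.104), and Brca2 without Cis 21 h replicate 1 or 2 (0.0549 and 0.0723). Where a group is left with 1 library, that library is assumed to vary like the others.

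No member passed for TE, tested as the difference between the footprint and the RNA change over the 12 libraries. At 6 h, 0 of 33 were called, beside 0.0% of all 9295 transcripts higher and 0.0% lower, with 2 members (710 transcripts) at an unadjusted p under 0.05, and at 21 h 0 of 33, beside 0.258% higher and 0.151% lower, with 4 members (1183 transcripts) at an unadjusted p under 0.05. Voom called 0 members at either time. The 3 members with the lowest unadjusted p at 6 h were Mre11a (log2 difference -0.65, SE 0.211), Ube2t (0.81, SE 0.288) and Mad2l2 (-0.43, SE 0.213). For Mre11a, footprints were 32.3 and 30.3 RPKM in controls and 29.6 and 27.8 at 6 h, and RNA was 6.80 and 5.98 and then 9.81 and 8.04. Mad2l2 footprints at 6 h were 45.5 and 41.2 RPKM and overlapped the controls, and its RNA at 8.53 and 8.46 lay above both controls. At 21 h the 3 were Mad2l2 (-0.68, SE 0.213), Polh (-0.53, SE 0.182) and Eme1 (0.69, SE 0.276), with limma adjusted p of 0.220, 0.268 and 0.333. For Mad2l2 and Polh the RNA rose and the footprints of the groups lay close, and for Eme1 the footprints rose while its RNA did not pass. Leaving out 1 library moved the Eme1 difference to 0.39 (without RNA Cis 21 h replicate 1) or 0.98 (without replicate 2) and the Ube2t difference at 6 h to 0.47 (without RNA Cis 6 h replicate 2) or 1.15 (without replicate 1).

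**Figure D4:**
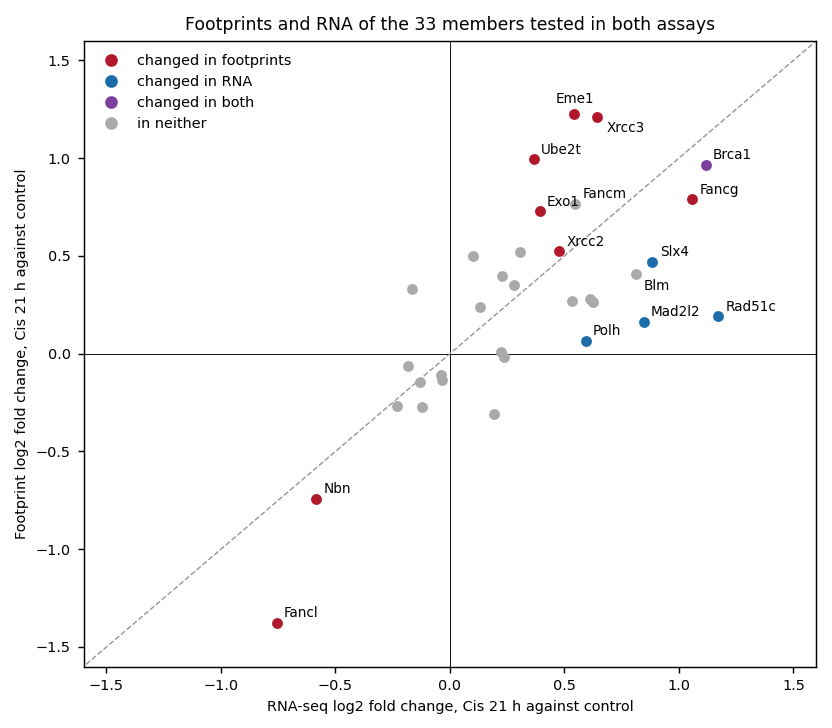
RNA log2 fold change (x axis) and footprint log2 fold change (y axis) at Cis 21 h against control for the 33 members tested in both assays. Each point is a member, colored by the assay in which it passed an adjusted p of 0.05, and the dashed line marks equal change. Of the 33, 22 were above 0 in both assays, 8 below 0 in both, and 3 differed in sign, and Brca1 was called in both. The same counts were not made over all transcripts.

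Read side by side at 21 h, 14 members were called in at least 1 assay and 1 (Brca1) in both. The 14 include Fancc, whose call is set aside because it passed the filter only through its controls. Taken singly, footprints had 18.9% of all transcripts higher and 20.2% lower, and RNA had 11.6% and 12.2%. Overlap of the assays and agreement of signs were not counted over all transcripts, so these counts are not shown to be particular to the members. Of the 33 members tested in both assays, 22 had a log2 fold change above 0 in both, 8 below 0 in both, and 3 differed in sign. By the labels' protocol the footprint and RNA libraries were both made from the supernatant of lysed cells, and no label says whether a footprint and an RNA library shared a dish.

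The members differ in genomic span, from 1.69 kb for Fancf to 196 kb for Fancc (RefSeq, GRCm38.p6, used as a length only). Across the 35 members tested for footprints, the log2 fold change at 21 h went with span at a Spearman rho of -0.54, and across 10338 transcripts with a span rho was -0.49. The 35 include Fancc, the longest, which passed the filter only through its controls, and rho was not computed without it. All points share the same libraries. Among all transcripts with a span over 80 kb, 1030 of 1556 fell at 21 h and 12 rose, with a median of -0.87, whereas under 10 kb 207 of 2589 fell and 731 rose, with a median of 0.20. Of the 5 members over 80 kb, Fancl (84.8 kb) fell, Fancc (196 kb) was low in all treated libraries but passed the filter only through its controls, and Blm (80.2 kb), Rbbp8 (110 kb) and Brip1 (143 kb) did not pass, with log2 fold changes of 0.41, -0.06 and -0.27. The members that rose were Fancg (8.23 kb), Eme1 (8.87 kb), Xrcc3 (10.7 kb), Ube2t (11.6 kb) and Xrcc2 (16.0 kb), and with longer spans Exo1 (30.6 kb) and Brca1 (63.2 kb). Nbn, which fell, spans 35.0 kb, a class (20 to 40 kb) with a median of 0.09. In RNA at 21 h rho was -0.33 over 34 members and -0.37 over 9396 transcripts. The part of span in these changes was not tested.

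**Figure D5:**
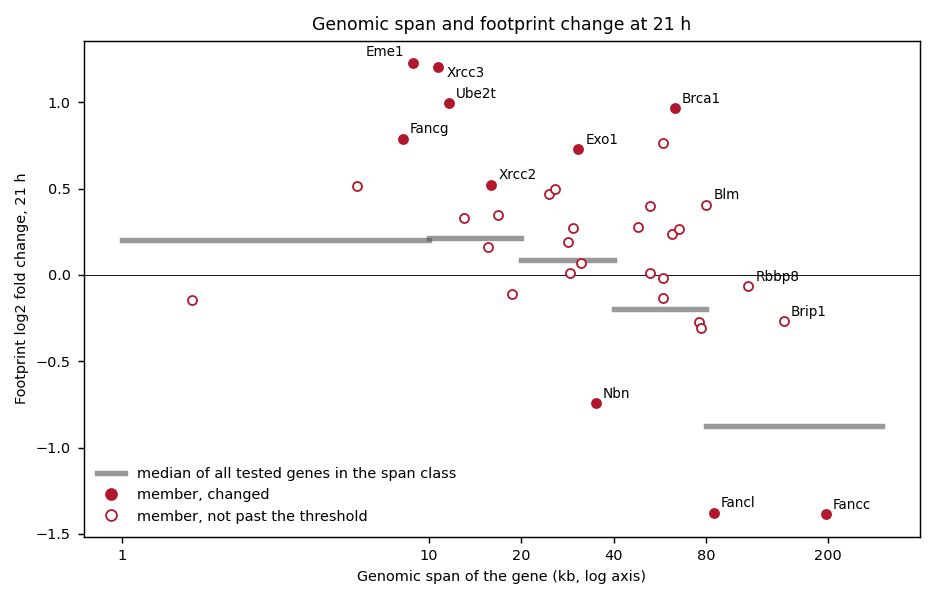
Genomic span of the gene (x axis, kb, log axis) and footprint log2 fold change at Cis 21 h against control (y axis) for the 35 members tested. Circles are members, filled where the adjusted p was under 0.05, and grey bars are the medians of all tested transcripts in 5 span classes, drawn over the range of the class (from 1 kb for the shortest and up to 300 kb for the longest). The medians were 0.20, 0.22, 0.09, -0.20 and -0.87 from the shortest to the longest class.

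Partners of these genes that are not among the 36 were read from a fixed list. Of 59 tested for footprints at 21 h, 18 rose (30.5%, beside 18.9% of all transcripts) and 10 fell (16.9%, beside 20.2%). In the Fanconi and unhooking list 6 of 17 rose and 0 fell, and the largest changes were those of the nuclease gene Dclre1b (log2 fold change 1.58, SE 0.227), Atad5 (1.20, SE 0.260), which helps to unload PCNA, and the core partner Faap24 (1.09, SE 0.228). In the recombination list 11 of 30 rose and 5 fell. Rad52 (1.90, SE 0.341), Helq (1.25, SE 0.301) and Rad51ap1 (0.89, SE 0.125) had the largest rises, and Babam2 (-3.84, SE 0.276), Rad51b (-2.19, SE 0.514) and Wrn (-1.45, SE 0.298) the largest falls. Babam2, a subunit of the BRCA1-A complex, went from 390 and 350 footprint reads in controls to 26 and 11, and Rad51b, a relative of Rad51c, from 21 and 18 to 5 and 0. In the translesion list 1 of 12 rose, the clamp gene Pcna (0.55, SE 0.0698), and 5 fell, among them Spidr (-1.88, SE 0.177) and Hltf (-0.91, SE 0.187). At 6 h, 1 of the 59 was called in footprints, Rmi2 (-1.27, SE 0.231), which was lower. This is 1.69%, beside 0.992% of all transcripts lower and 1.05% higher. Rmi2 had few footprint reads, 22 and 23 in controls and 10 and 5 at 6 h.

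Genes of the cell cycle moved at the same time. Of 20 S phase genes 14 rose in footprints at 21 h and 0 fell, with a median log2 fold change of 0.67, and of 20 G2/M genes 12 rose and 0 fell, with a median of 0.42, beside a member median of 0.27 and 18.9% of all transcripts higher and 20.2% lower. In RNA at 21 h 15 and 11 of 20 rose and 0 fell, with medians of 0.78 and 0.48, beside 11.6% of all transcripts higher and 12.2% lower. At 6 h 4 S phase genes were called higher and 0 G2/M genes were called in footprints, beside 1.05% of all transcripts higher and 0.992% lower, with medians of 0.23 and -0.08, beside a member median of -0.12. The S phase list shares Pcna and Uhrf1 with the partner list and no gene with the 36 members. The part of the cell cycle in the members' levels was not tested. In bulk samples a change in the share of cells in a phase and a change of RNA in each cell cannot be told apart.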

How the data were processed

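Footprints and RNA were sequenced from KPC cells, 2 libraries for each of 3 groups and each assay. The deposited files hold RPKM per transcript, made by the authors from reads handled with cutadapt and STAR on GRCm39 according to the processing notes (versions not given in the sources used here). RPKM multiplied by the coding length (footprints) or transcript length (RNA) gave whole reads within 0.001 for all values, which gave the depths, and transcripts not listed in a library were set to 0. Each assay was scaled by its own median-of-ratios factors, and values were tested as log2(scaled RPKM + 0.5) for transcripts with a mean of at least 1, by limma 3.58.1 (lmFit, eBayes with trend, R 4.3.3), with the 3 groups of an assay in a model. Fold changes are on that scale, which understates changes of low genes. TE was the assay by treatment interaction over the 12 libraries. All p-values are two-sided and adjusted (Benjamini-Hochberg) over all transcripts, and the tests were also run on simulated data. Those data had independent libraries and a single size of change, so they cannot check smaller changes or libraries from a shared culture.

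The members, gene lists and partner pairs were chosen with earlier results of these data known. All 36 members are accounted for by role, and values in each library are given for up to 6 called members with the largest rise and 6 with the largest fall in each assay at 21 h whose treated libraries lay on the same side of both controls, and for the 3 lowest p for TE. Values of further members, and the partner ratios, were added after they were seen. Partner lists give up to 3 of the largest called changes in each direction, and a few items are not reported here. Motifs were searched in the 250 bases before the RefSeq start. Alternatives were the pseudocount (0.1, 1), the filter (none, 5), the scaling (none, quantile), no trend, only the groups compared, a replicate block, voom on recovered reads, a limit on fold change, RNA RPKM without the 3 most abundant transcripts, and each library left out. Replicates correlated at 0.968 to 0.990 and differed beyond counting error (chi-square over its degrees of freedom 1.45 to 3.97), so no library was counted as deposited a second time, which does not show that they came from separate cultures. Python 3.11.15 was used for tables and figures.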

Additional observations from a re-analysis of the deposited data

Results flagged for a closer look

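The effects at the 2 time points share their control libraries, and the difference between them was tested directly as Cis 21 h against Cis 6 h (limma, adjusted p under 0.05). In footprints the log2 fold change from 6 h to 21 h was 1.07 for Brca1, 0.87 for Polk, 0.71 for Blm and 0.70 for Eme1, and it was -0.72 for Fancl and -0.50 for Nbn. In RNA it was 1.07 for Brca2, 1.002 for Blm, 0.97 for Brca1, 0.93 for Slx4 and 0.82 for Fancd2. Brca1 and Blm were thus past the threshold in both assays, but not equally firmly. The Blm call was lost in 8 alternative fits and kept in 8 for footprints, and lost in 10 and kept in 6 for RNA. The Brca1 call was kept in all 16 for footprints, and lost in 5 and kept in 12 for RNA. With 2 libraries a group, a single library standing far from the rest of its group could not be looked for.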

How the results depend on the processing

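The 26 called member results were recomputed under 417 alternatives in all, of which 326 kept the direction and the call, 91 kept the direction and lost the call, and 0 reversed. The calls of Eme1, Fancl, Ube2t, Brca1, Nbn and Xrcc3 in footprints at 21 h, and of Brca1 and Eme1 in footprints at 21 h against 6 h, held under each alternative fit, apart from the limit on fold change, which was applied to counts only and which Ube2t, Brca1 and Nbn at 21 h and Eme1 at 21 h against 6 h did not pass. The causes of the changes below were not tested. For most settings the counts over all transcripts are not given, so the changes are not shown to be particular to the members. In footprints at 6 h, where 0 members were called, 1 (Ube2t) was called higher with a pseudocount of 1, a mean of at least 5, quantile normalization or only the groups compared, and voom called 3 higher and 2 lower. In footprints at 21 h, 2 instead of 7 were higher when the log2 fold change also had to pass 1, 5 without the filter, with a mean of at least 5, with only the groups compared and with any 1 library left out (2 to 3 lower), and 10 with quantile normalization, no trend or voom. Over all transcripts at 21 h the main fit called 1960 higher and 2101 lower. Quantile normalization called 2038 and 1991, and voom 2262 and 2387. In footprints at 21 h against 6 h, 7 instead of 4 were higher without the variance trend and with voom, 1 was higher and 0 lower with the limit on fold change, and 1 instead of 2 was lower without the filter, without the trend, with only the groups compared and with voom. There voom called 1773 higher and 1865 lower of all transcripts, beside 1555 and 1634 in the main fit. In RNA at 21 h, the 5 higher became 3 without the filter, 3 with a mean of at least 5 (8 members tested), 8 with voom and 2 with the limit on fold change. In RNA at 21 h against 6 h, the 5 became 1 without the filter, 3 with a mean of at least 5, 3 with only the groups compared and 2 with the limit on fold change. Leaving out a library gave 2 to 4 higher and 0 to 1 lower in footprints at 21 h against 6 h, 1 to 5 higher in RNA at 21 h, and 0 to 3 higher in RNA at 21 h against 6 h.

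Replicate numbers did not pair the samples (correlations of same-numbered deviations from -0.014 to 0.021). With the replicate block, 1 instead of 2 members was lower in footprints at 21 h against 6 h, and 3 instead of 5 were higher in RNA at 21 h against 6 h. The calls lost with the block were Xrcc2 in footprints at 21 h (adjusted p = 0.0603), Nbn in footprints at 21 h against 6 h (0.0521), and Fancd2 (0.0571) and Blm (0.0514) in RNA at 21 h against 6 h. The part of depth in the RNA and TE results was not tested, and 862476 to 1341584 RNA reads a library lay outside the 3 most abundant transcripts.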
